A study of Zea mays with 40 samples.

Results

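Kernels of inbred line YZU191 were compared with kernels of inbred line YZU147 at 30 days after pollination (DAP), to ask which genes followed an advance of development in one line and which did not. The comparison comprised 4 of the 40 libraries, chosen by line and DAP in their titles, with 2 ears of T191 (taken as YZU191 by its number) against 2 ears of T147 (taken as YZU147). All directions hold for the lines as the library titles name them. The match of T191 to YZU191 and of T147 to YZU147 rests on the number alone and is in doubt, and an exchange would turn every direction given for the YZU names. Each library was made from total RNA of whole seeds taken from the middle of 1 maize (Zea mays) ear, and no treatment or transgene is named for any group. The other libraries were of the same lines at 10, 20, 40, and 50 DAP and of both parents of the recombinant inbred population, titled T209 and T210, at all 5 times. Which of DH1M and T877 is T209 is not given by the titles. T147 and T191 are single inbred lines, so that other differences of genotype and a difference in developmental time cannot be told apart. Nothing in the labels links an ear of one line to an ear of the other.

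A maize kernel holds an endosperm that stores starch and protein, an embryo that stores oil and globulins, and maternal tissue. Sucrose enters through transfer cells at the base of the endosperm, is cleaved, and is turned into ADP-glucose, from which starch synthases, branching enzymes, and debranching enzymes build the starch granule. Zeins, the prolamin storage proteins, are made in the starchy endosperm under transcription factors such as opaque2. Toward maturity the starchy endosperm stops filling and dies, while the embryo makes desiccation proteins.

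Expression was given as FPKM, the reads on a gene per unit length of the gene and per mapped read of the library, for 65196 rows, of which 43394 reached 1 FPKM in at least 2 libraries and were tested as log2(FPKM + 1). FPKM summed to between 585677 and 672343 in the 4 libraries. Steps in the low values put their depth at 0.672 to 0.972 of that of the median library, but the number of reads is unknown, so that no interval for counting error is given. Markers of starchy endosperm and embryo were present in all 4 libraries. Of 3 genes of the embryo-surrounding region 2 were listed at 0 in all 4, 11 genes of green maternal tissue, 2 of them at 0 in all 4, summed to between 0.307 and 3.88 FPKM, and 3 aleurone genes summed to between 25.9 and 61.8 FPKM. The ears of one line lay closer to each other in T147 (Spearman's rho 0.961 over the rows tested) than in T191 (0.854).

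Between T191 and T147 at 30 DAP, 5441 of the 43394 rows, or 12.5%, passed an adjusted p of 0.05 in limma. In T191 2288 rows were higher (5.27%) and 3153 were lower (7.27%), and 2033 of the 5441 were loci assembled from reads without a gene name. Without the second ear of T191, 4671 rows passed and 52.7% of them were higher in T191, against 42.1% with all libraries. Without the first or the second ear of T147, 2441 and 3447 rows passed. The median log2 difference over all rows tested was 0.

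The direction of development was taken from T209 and T210, whose libraries are not part of the line difference. From 30 to 40 DAP, averaged over both parents, 5426 rows fell (12.5%) and 4513 rose (10.4%), and without the first ear of T210 at 40 DAP 6432 in place of 9939 rows passed. Of the 5441 rows that differed between T191 and T147, 2134 also had a parental step that passed the threshold. In 1927 of these, or 90.3%, T191 differed from T147 in the direction in which the parents changed. These comprised 1559 rows that were lower in T191 and fell in the parents and 368 that were higher and rose. In 207 rows the difference ran against the parental step, with 33 lower and 174 higher in T191. The remaining 3307 rows, 1561 lower and 1746 higher in T191, had no parental step that passed. Of all rows with a parental step that passed 54.6% fell, and of the 5441 rows 42.1% were higher in T191. The share of 90.3% was not tested against that of unrelated directions. Without the first or the second ear of T147, 895 and 1270 rows followed the step. When the step of T209 alone was used, 80% of rows with a step followed it, and with that of T210 alone it was 95.3%. The steps of both parents had the same sign in 94.6% of the 1927 rows that followed the mean step and in 74.4% of the 207 rows against it, so that for some rows the mean step is mainly that of 1 parent.

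The larger the parental fall, the more often T191 was lower. Among 116 rows that fell by more than 4 on the log2 scale in the parents, 91 (78.4%) were lower in T191 at 30 DAP and 0 were higher (0 also at an unadjusted p under 0.05 in limma), with a median difference of -3.96. The share lower was 46.2% of the 591 rows with a step between -4 and -2, 30.9% of the 2053 between -2 and -1, and 21% of the 2666 between -1 and 0. On the rising side, 21.4% of the 98 rows that rose by more than 2 were higher in T191. The share higher was 11.1% of the 1310 rows with a step between 1 and 2, and 6.51% of the 3105 between 0 and 1. Over all rows tested, 7.27% were lower and 5.27% were higher in T191. This asymmetry between falling and rising genes is visible in the scatter of the line difference against the parental step.

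**Figure D1:**
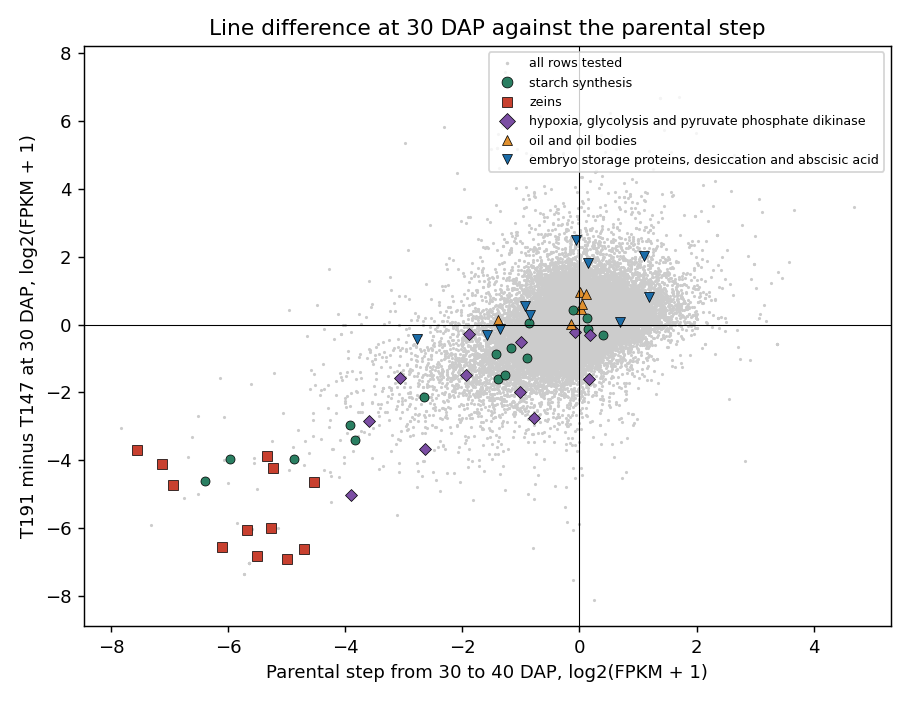
Each grey point is one of 43394 rows tested, with the mean change of T209 and T210 from 30 to 40 DAP on the x axis and the difference between T191 and T147 at 30 DAP on the y axis, both in log2(FPKM + 1). Starch genes and zeins run to the lower left, down to differences of -4.61 and -6.90, while the oil and embryo genes have median differences of 0.53 and 0.41.

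To place a library along development, the position of each of 4168 rows with a parental step of at least 1 on the log2 scale was taken between the parental mean at 30 DAP (place 0) and that at 40 DAP (place 1), and the median over rows was used. The ears of T147 at 30 DAP were at -0.25 and -0.21, and the ears of T191 at 0.22 and 0.28. Both ears of T191 thus had a higher place than both ears of T147, and the line means differed by 0.48. With 2 ears against 2 the smallest p an exact permutation test allows is 0.3333, so the places are given as a description. At 20 DAP the lines overlapped, with -0.10 and -0.15 in T191 and -0.08 and -0.15 in T147. Both ears of T147 at 30 DAP thus lay below both of its ears at 20 DAP, toward its places of -0.28 and -0.34 at 10 DAP. The place therefore did not order the times of T147 before 40 DAP, and part of the difference at 30 DAP is the low place of T147. At 40 DAP T191 was at 1.01 in both ears, and T147 was at 0.64 and 0.65. The parents also stood apart at 30 DAP, with T209 at 0.17 and 0.11 and T210 at -0.06 and -0.23.

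The 2760 falling rows and the 1408 rising rows did not place T191 alike. By falling rows, the ears of T191 were at 0.34 and 0.39 and those of T147 at -0.25 and -0.20. By rising rows, the ears of T191 were at 0.04 and 0.12 and those of T147 both at -0.24. T191 had a higher place than T147 by either set, and by more with the falling one. Leaving out the zein and starch rows gave the same difference of 0.48 between the lines. These lists hold only 24 and 16 rows, too few to move a median over 4168 rows by much. The result therefore cannot tell how far the difference rests on storage genes.

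**Figure D2:**
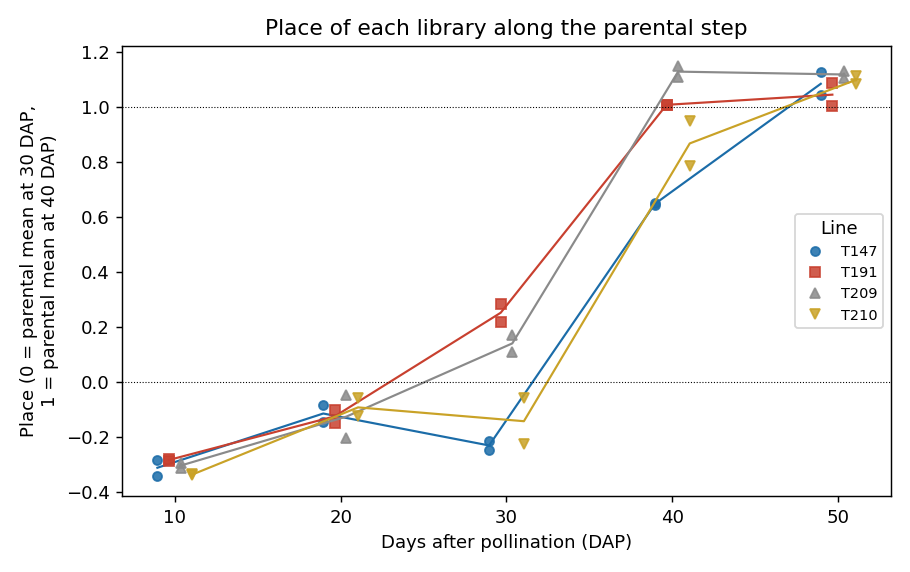
The place of each library (points, 2 ears per line and DAP; lines join the means) is plotted against DAP, with 0 at the parental mean at 30 DAP and 1 at that at 40 DAP. The lines lie together at 10 and 20 DAP, T191 (0.22 and 0.28) is above T147 (-0.25 and -0.21) at 30 DAP, and T147 is lowest at 40 DAP.

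Whole profiles gave a like picture for T147 and a less clear one for T191. Over the rows tested, the ears of T147 at 30 DAP had a rho of 0.926 and 0.907 with the mean of T147 at 20 DAP and of 0.808 and 0.827 with that at 40 DAP. The ears of T191 had a rho of 0.852 and 0.806 with their own line at 20 DAP and of 0.838 and 0.823 with it at 40 DAP. Against T147, the ears of T191 had a rho of 0.813 and 0.811 at 30 DAP and of 0.815 and 0.819 at 40 DAP. With the parents at 30 DAP, the ears of T191 had a rho of 0.854 and 0.885 for T209 and of 0.843 and 0.815 for T210. Those of T147 had 0.833 and 0.841 for T209 and 0.874 and 0.881 for T210. These are values across rows, which are not independent replicates.

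Most genes of the starch pathway that were tested were lower in T191 at 30 DAP. Of 16 starch genes tested, 9 were lower (background 7.27%) and 7 did not pass, with a median difference of -1.24 against 0 over all rows. All 9 had fallen from 30 to 40 DAP in the parents. Without the first ear of T147 5 of the 16 were lower.

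The supply of ADP-glucose was among the steps with the largest differences. For sh2 (GRMZM2G429899), the large subunit of the endosperm ADP-glucose pyrophosphorylase, the ears of T147 had 322 and 155 FPKM, and those of T191 had 35.4 and 4.72. The log2 difference was -3.96 (SE 0.56, adjusted p = 2.79e-05), a ratio of means of 11.9. For bt2 (GRMZM2G068506), the small subunit, T147 had 213 and 130 FPKM and T191 had 19.1 and 11.4, a difference of -3.40 (SE 0.36, adjusted p = 6.2e-07). The groups did not overlap for either subunit, as in 99.9% of the rows that passed and 48.1% of all rows tested. For bt1 (GRMZM2G144081), which carries ADP-glucose into the amyloplast, T147 had 315 and 281 FPKM and T191 had 29.6 and 10.95, a difference of -3.97 (SE 0.55, adjusted p = 2.09e-05). The genes of the leaf form of the enzyme were at far lower levels and differed less. For agpll1 (GRMZM2G391936), a large subunit, T147 had 4.50 and 2.58 FPKM and T191 had 1.61 and 1.23 (difference -0.88, adjusted p = 0.012). At 10 and 20 DAP its means were higher in T191, with 12.3 and 8.73 FPKM against 7.27 and 4.48 in T147. At 40 and 50 DAP they were 0.0999 and 0.0847 in T191 and 0.452 and 0.116 in T147. Over the other 4 DAP the difference was 0.26 (adjusted p = 0.124). The paper reports more agpll1 in YZU191 than in YZU147, without naming a time. By the library titles, the means at 10 and 20 DAP had this direction and the later ones did not. The small subunit agpsl1 (GRMZM2G163437) had 6.31 and 6.59 FPKM in T147 and 5.14 and 8.81 in T191, where the groups overlapped (difference 0.06, SE 0.32, adjusted p = 1), although it fell in the parents by 0.86 on the log2 scale.

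Of the enzymes that build the granule, wx1 (GRMZM2G024993), the granule-bound starch synthase of the endosperm, had the largest difference. The ears of T147 had 1512 and 724 FPKM and those of T191 had 99.7 and 17.2, a difference of -4.61 (SE 0.72, adjusted p = 8.35e-05). Branching enzyme ae1 (GRMZM2G032628) had 91.8 and 43.5 FPKM in T147 and 10.6 and 4.86 in T191 (difference -2.96, adjusted p = 3.58e-05). The other three that were lower were du1, a starch synthase of the III type, by -2.12, zpu1, a pullulanase-type debranching enzyme, by -1.59, and pho1, the plastidial starch phosphorylase, by -1.49, with adjusted p-values of 0.00215, 0.00413, and 0.0319.

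Other starch genes did not pass the threshold. For GBSSIIa (GRMZM2G008263), a granule-bound synthase, T147 had 17.2 and 20.2 FPKM and T191 had 17.1 and 27.1, a difference of 0.20 (SE 0.48, adjusted p = 0.93) that turned to -0.12 without the second ear of T191. Its parental step did not pass either (0.13, adjusted p = 0.85). Starch synthase ss1 and branching enzyme sbe1 fell in the parents by 0.89 and 1.17, and their line differences were -0.99 (SE 0.45, adjusted p = 0.168) and -0.68 (SE 0.39, adjusted p = 0.306). Isoamylase genes iso2 and iso3 had differences of -0.30 and 0.44, and branching enzyme gene sbe3 had -0.12, none with a parental step that passed.

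**Figure D3:**
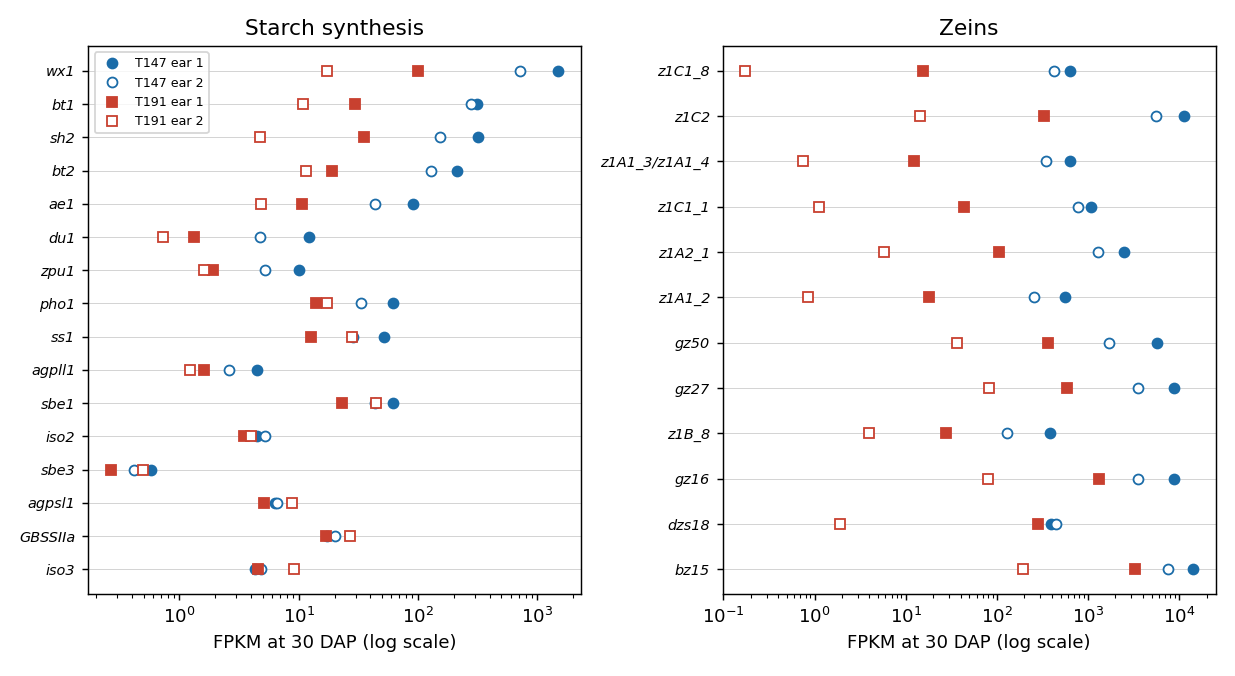
FPKM at 30 DAP (log axis) in each of the 4 libraries for 16 starch genes and 12 zein rows with distinct values, ordered by the line difference, with circles for T147, squares for T191, and open symbols for the second ear. The squares of wx1 (99.7 and 17.2) lie left of its circles (1512 and 724), while those of GBSSIIa overlap its circles, and the open squares of the zeins lie far left of the filled ones.

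Among genes of sucrose cleavage and sugar transport, 3 of 11 tested were lower in T191 (background 7.27%), with a median of -0.34, and all 3 followed the parental step. Each of these 3 was far lower in both ears of T191. For mn1 (GRMZM2G119689), the cell wall invertase of the transfer cells, T147 had 47.7 and 22.5 FPKM and T191 had 0.761 and 0.0303, a difference of -4.65 (SE 0.77, adjusted p = 0.000185). For sh1 (listed as SH-1), a sucrose synthase of the endosperm, T147 had 464 and 193 FPKM and T191 had 30.6 and 9.86 (difference -4.02, SE 0.58, adjusted p = 3.25e-05). For sps1 (listed as SPS), a sucrose phosphate synthase, T147 had 5.06 and 3.31 FPKM and T191 had 0.202 and 0.442 (difference -1.96, adjusted p = 0.00145). These 3 were also lower in T191 over the other 4 DAP, by -1.12, -0.96, and -1.10, for which the background is 17.8% in either direction. The parental steps of mn1 and sps1 were those of T210 (-3.69 and -3.10), and T209 had -0.40 and -0.30, which did not pass. The sucrose synthases sus1 and sus2 (-1.24 and 0.41), the invertases incw1, ivr1, and ivr2 (-0.43, 0.98, and -0.28), and the sucrose transporters sut1, sut2, and sut4 (-0.34, -0.26, and 0.11) did not pass.

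Zeins gave the largest differences of any list. The table has 24 zein rows, but several carry the same FPKM in every library, so that only 12 have distinct values, and reads of near-identical zein copies cannot be told apart. Of these 12, 11 were lower in T191 (background 7.27%) and 1 did not pass, with a median of -5.36, and all 11 followed a parental fall. Without the first ear of T147 5 of 12 were lower, and without the second ear of T191 also 5. For z1C2 (GRMZM2G397687), an alpha zein also known as floury2, T147 had 11448 and 5649 FPKM and T191 had 333 and 14.2, a difference of -6.82 (SE 1.55, adjusted p = 0.00384). Without the second ear of T191 this was -4.59 (adjusted p = 0.103), and without the first ear of T147 it was -6.31 (adjusted p = 0.0557). For z1C1_8 (GRMZM2G044152), T147 had 643 and 428 FPKM and T191 had 15.6 and 0.174, a difference of -6.90 (SE 0.94, adjusted p = 1.67e-05). The ears of T191 differed far more from each other than those of T147 in both genes, and both lay below T147.

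Other alpha zeins share their values with a further row. The row z1A1_3/z1A1_4 (GRMZM2G059620) had the same values as z1A1_7 (GRMZM2G353268), with 638 and 346 FPKM in T147 and 12.4 and 0.754 in T191 (difference -6.60, adjusted p = 2.34e-05). The row z1C1_1 (GRMZM2G088441) had the same values as z1C1_5 (GRMZM2G045387), with 1084 and 787 FPKM in T147 and 44.1 and 1.13 in T191 (difference -6.56, adjusted p = 0.000251). The beta and gamma zeins had smaller differences. The beta zein bz15 had 14250 and 7644 FPKM in T147 and 3245 and 196 in T191 (difference -3.71, adjusted p = 0.0347), and the gamma zeins gz16 and gz50 differed by -4.10 and -4.73. The delta zein dzs18 did not pass, since the first ear of T191 had 284 FPKM, close to the 388 and 450 of T147, and the second had 1.88 (difference -3.87, SE 1.39, adjusted p = 0.0695). The gamma zein gz27 (GRMZM2G138727) passed (-4.63, adjusted p = 0.0414) but is uncertain, because it was listed at means of 2.02 to 8.16 FPKM at 10 and 20 DAP in T147 and T191 and at 5799 and 8185 in T210.

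Summed over the 12 rows, zeins had 55192 and 25768 FPKM in T147 and 6376 and 424 in T191. In whole seeds, fewer endosperm cells and less RNA per cell cannot be told apart. FPKM are shares of a library, so that a smaller zein share enlarges the share of all other genes, and the part of this in the differences was not tested. Rescaling the libraries by their median ratio moved the median difference of all rows to 0.02 and the share of higher rows among those that passed to 45.9%.

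Transcription factors of the endosperm split. Of 9 tested, 4 were lower in T191 (background 7.27%) and 5 did not pass, with a median of -0.43. For o2 (GRMZM2G015534), the opaque2 activator of zein genes, T147 had 112 and 55.5 FPKM and T191 had 20.2 and 0.553 (difference -3.80, SE 0.67, adjusted p = 0.000334). For pbf1 (listed as PBF), the Dof factor that binds the prolamin box, T147 had 19.9 and 13.0 FPKM and T191 had 4.41 and 0.324 (difference -2.67, SE 0.40, adjusted p = 5.77e-05). Both fell in the parents, by 4.62 and 2.75. The naked endosperm gene nkd2 was lower by a smaller amount (-1.12, adjusted p = 0.0407), which was lost without either ear of T147 (-0.96 and -1.29, adjusted p = 0.278 and 0.0842) and without the first ear of T191 (-0.77, adjusted p = 0.314). Its partner nkd1 had 60.7 and 43.9 FPKM in T147 and 25.9 and 61.7 in T191 (-0.36, SE 0.45). The opaque2 heterodimerizing proteins ohp1 and ohp2 differed by -0.09 (SE 0.37) and 0.32 (SE 0.33), and mads47 and dof3 by -0.43 and 0.01.

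The factor fl3 (GRMZM2G006585), known as floury3, did not follow the parental step. The ears of T147 had 10.3 and 12.4 FPKM, and those of T191 had 0.242 and 0 (difference -3.47, SE 0.47, adjusted p = 1.72e-05). Over the other 4 DAP fl3 was also lower in T191 (-0.75, adjusted p = 0.0275). In the parents it was already low at 30 DAP, with means of 0.344 FPKM in T209 and 0.138 in T210, and its step to 40 DAP was -0.01. All 4 lines had high levels at 10 DAP (means of 345 to 1754 FPKM), and T147 had a mean of 16.4 FPKM at 20 DAP against 2.42 in T191. At 30 DAP T147 was thus above T191 and both parents, and from 30 to 40 DAP fl3 fell in T147 by 3.10 (adjusted p = 3.05e-05).

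Genes of the transfer layer and the embryo-surrounding region had a median difference of -1.22, but only 2 of 16 were lower by the test, which is near the background of 7.27%. These were mn1 (above) and betl9 (GRMZM2G087413), with 91.8 and 28.5 FPKM in T147 and 25.6 and 9.77 in T191 (difference -1.63, adjusted p = 0.0481). The call of betl9 was lost with a pseudocount of 0.1 (adjusted p = 0.311), without a filter (0.0717), with rescaled libraries (0.0521), with only the 20 libraries of T147 and T191 (0.068), without the first ear of T147 (-0.80, adjusted p = 0.615), and without the second ear of T191 (-0.97, adjusted p = 0.402). The ears of T191 did not resemble each other in this tissue. For betl1 (GRMZM2G082785) T147 had 53.6 and 25.1 FPKM and T191 had 35.4 and 1.95, so that the groups overlapped (difference -1.86, SE 0.89, adjusted p = 0.196). Without the first ear of T191 7 of the 16 genes were lower, and without the second 1 was.

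**Figure D4:**
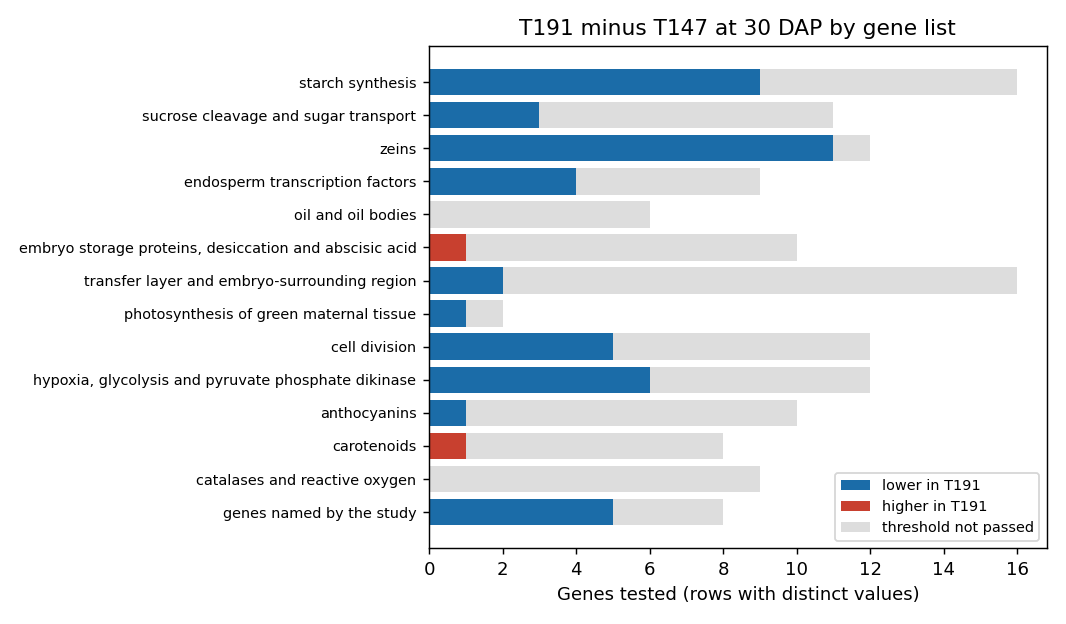
Number of genes tested per list (bar length, rows with distinct values) that were lower in T191 at 30 DAP, higher, or did not pass an adjusted p of 0.05. Blue covers 9 of 16 starch genes and 11 of 12 zeins, and 0 of the oil genes or of the catalases and other genes of reactive oxygen.

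Cell division genes were lower where they differed. Of 12 tested, 5 were lower in T191 (background 7.27%), all with a parental fall, and 7 did not pass, with a median of -0.62. Without the first or second ear of T147 and without the first of T191, 3, 2, and 2 genes were lower. The histone H3 genes h3c4 and h3c2 (listed as H3C4 and H3C2) had the largest differences, and near-identical histone copies may share reads. For h3c4 T147 had 9.30 and 13.1 FPKM and T191 had 1.17 and 2.12 (difference -2.21, SE 0.55, adjusted p = 0.0073), and for h3c2 T147 had 6.93 and 8.14 and T191 had 1.09 and 1.16 (difference -2.004, SE 0.37, adjusted p = 0.000565). The replication helicase subunit gene mcm6 had 2.49 and 2.26 FPKM in T147 and 0.0627 and 0.858 in T191 (difference -1.26, adjusted p = 0.00192, and 0.0668 without the first ear of T191). The replication clamp gene pcna1 (listed as PCNA) had 3.72 and 3.59 FPKM in T147 and 1.39 and 1.22 in T191 (difference -1.02, adjusted p = 0.0159). It was also lower in T191 over the other 4 DAP (-0.50, adjusted p = 0.0136). The call of pcna1 was lost without either ear of T147 (adjusted p = 0.108 and 0.0736) or the second of T191 (0.0803), and that of h3c4 without the second ear of T147 (0.077), without the first of T191 (0.0662), and with a pseudocount of 0.1 (0.0596). Histone genes h4c7, h4c14, and histone2b1 had differences of -0.19, -0.32, and -0.35, which did not pass.

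Of 12 genes of hypoxia, glycolysis, and pyruvate phosphate dikinase, 6 were lower in T191 (background 7.27%) and 6 did not pass, with a median of -1.60. Of the 6 that were lower, 3 had a mean parental step from 30 to 40 DAP that passed. For ppdk2 (listed as PPDK2), a pyruvate phosphate dikinase of the endosperm, T147 had 433 and 168 FPKM and T191 had 12.2 and 4.35 (difference -5.01, SE 0.82, adjusted p = 0.000157), and it fell in the parents by 3.89. For adh2 (listed as ADH2), an alcohol dehydrogenase, T147 had 204 and 247 FPKM and T191 had 26.7 and 34.1 (difference -2.85, SE 0.38, adjusted p = 1.18e-05), with a parental fall of 3.60. It was also lower in T191 over the other 4 DAP (-1.38, adjusted p = 7.63e-06). For gpc3 (listed as GAPC3), a cytosolic glyceraldehyde-3-phosphate dehydrogenase, T147 had 157 and 113 FPKM and T191 had 13.3 and 6.99 (difference -3.66, SE 0.68, adjusted p = 0.000586). These 3 genes followed the step.

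The other three were lower in T191 with no mean parental step that passed. For gpc4 (GRMZM2G176307), another dehydrogenase of the same kind, T147 had 180 and 154 FPKM and T191 had 22.2 and 25.5 (difference -2.76, SE 0.50, adjusted p = 0.00044), and the mean parental step was -0.78 (adjusted p = 0.121), with -2.45 in T210 (adjusted p = 0.00143) and 0.90 in T209 (adjusted p = 0.244). For pdc2 (GRMZM2G038821), a pyruvate decarboxylase, the difference was -1.62 (adjusted p = 0.000472) and the step 0.17. For ald1 (GRMZM2G057823), an aldolase, it was -1.97 (adjusted p = 0.0187) and the step -1.01 (adjusted p = 0.0661). In both parents gpc4 and pdc2 were already lower at 30 than at 20 DAP. From 20 to 30 DAP gpc4 went from 311 and 287 to 18.8 and 15.6 FPKM in T209. In T210 it went from 164 and 307 to 34.5 and 115. For pdc2 the values were 113 and 121 to 17.6 and 23.2 in T209, and 101 and 81.3 to 27.5 and 43.8 in T210. In ald1 T209 was lower too, while the ears of T210 overlapped. These earlier changes were not tested. The paralogue adh1 behaved otherwise than adh2. It had 468 and 451 FPKM in T147 and 291 and 485 in T191 (difference -0.29, SE 0.61, adjusted p = 0.902), although it fell in the parents by 1.88. In ppdk1 the difference was -1.58 (SE 0.58, adjusted p = 0.0765) beside a parental fall of 3.07.

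Genes of the embryo did not pass as lower in T191. None of 6 genes of oil and oil bodies passed in either direction in limma (0 also at an unadjusted p under 0.05), with a median of 0.53. The oleosin gene ole1 (listed as OLE16) had 13413 and 20350 FPKM in T147 and 40318 and 25573 in T191 (difference 0.96, SE 0.54, adjusted p = 0.294). Its groups did not overlap, as in 48.1% of all rows tested. The oleosin gene ole17 fell in the parents by 1.39 and differed between the lines by 0.14 (SE 0.50). Of 10 genes of embryo storage proteins, desiccation, and abscisic acid, 1 was higher in T191 (background 5.27%) and 9 did not pass. The globulin gene glb1 (GRMZM2G067919) had 4976 and 4803 FPKM in T147 and 2871 and 17954 in T191, so that the ears of T191 lay on both sides of T147 (difference 0.55, SE 0.71). The globulin gene glb2 had a difference of -0.30 (SE 1.31), the abscisic acid regulator vp1 of 0.82 (SE 0.71), and emb5 of 0.07 (SE 0.75).

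The gene that was higher was mlg3 (listed as MGL3), which encodes a late embryogenesis abundant protein. The ears of T147 had 269 and 306 FPKM and those of T191 had 1192 and 2192, a difference of 2.49 (SE 0.78, adjusted p = 0.0356). This was lost without any one of the 4 libraries (adjusted p of 0.0518 to 0.201) and without the filter on low values (0.059). The parental step was -0.05, so that mlg3 did not count as following it, and at 30 DAP T209 had a mean of 1059 FPKM and T210 of 1605, near the 1692 of T191. The dehydrin gene rab17 (listed as DHN1) had 808 and 1021 FPKM in T147 and 3626 and 3676 in T191 but did not pass (2.01, SE 0.74, adjusted p = 0.0781). Summed over 5 embryo markers, T147 had 35090 and 43920 FPKM and T191 had 51032 and 71752. The markers in this sum did not all go the same way. In the first ear of T191 ole1 (40318) was above both ears of T147, while glb1 (2871) and glb2 (6598) were below both. For glb2 T147 had 15534 and 17217 FPKM, and the second ear of T191 had 26614. In that second ear ole1, glb1, and glb2 were all above T147. The part of the share of embryo RNA in the differences was not tested.

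Among pigment genes the counts were near the background. Of 10 anthocyanin genes 1 was lower in T191 (background 7.27%), the bHLH regulator r1 (GRMZM5G822829), with 2.02 and 2.32 FPKM in T147 and 0.102 and 0.402 in T191 (difference -1.35, SE 0.18, adjusted p = 1.01e-05), which followed a parental fall of 0.68. The structural genes a1, bz1, bz2, and c2 had differences of -0.14 to -0.75, which did not pass. Of 8 carotenoid genes 1 was higher in T191 (background 5.27%). This was lcye1 (GRMZM2G012966), the lycopene epsilon cyclase at the branch to lutein, with 0.442 and 0.407 FPKM in T147 and 4.05 and 6.39 in T191 (difference 2.10, SE 0.42, adjusted p = 0.0012). It was also higher in T191 over the other 4 DAP (1.26, adjusted p = 0.000103) and had no parental step that passed (0.10). At 30 DAP its mean was 4.38 FPKM in T209 and 0.318 in T210, so that each line was close to one parent.

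Of 12 genes of photosynthesis only 2 reached the filter. The gene rbcs1 (listed as RBCS), the small subunit of Rubisco, had 2.41 and 3.20 FPKM in T147 and 0.203 and 0.351 in T191 (difference -1.57, SE 0.23, adjusted p = 3.89e-05), with no parental step that passed (-0.28, adjusted p = 0.235). None of 9 genes of catalases and reactive oxygen passed in limma (1 was lower and 0 were higher at an unadjusted p under 0.05), with a median of 0.08 and differences from -1.12 in cat3 (SE 0.51, adjusted p = 0.179) to 0.65 in sod4 (SE 0.37, adjusted p = 0.301). The catalase gene cat1 rose in the parents by 0.83 and differed between the lines by 0.08 (SE 0.34).

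Of the 8 genes named by the study, 5 were lower in T191 at 30 DAP (background 7.27%), and all 5 followed the parental step. The study took these genes from pools of inbred lines and followed them in these libraries, so that the count is not independent evidence of their direction. The largest difference was in GRMZM2G043417, with 70.8 and 33.7 FPKM in T147 and 6.59 and 0.995 in T191 (difference -3.68, SE 0.45, adjusted p = 3.9e-06). GRMZM2G038677 had 8.88 and 4.15 FPKM in T147 and 0.783 and 0.310 in T191 (difference -2.22, adjusted p = 0.00188, and 0.0689 without the first ear of T147). GRMZM5G843748 had 39.1 and 24.7 in T147 and 5.45 and 7.06 in T191 (difference -2.15, adjusted p = 0.00152). GRMZM2G136106 had 11.5 and 16.1 FPKM in T147 and 2.60 and 4.13 in T191 (difference -1.76, adjusted p = 0.000172). In these 4 genes both ears of T191 were below both of T147. Groups did not overlap in 48.1% of all rows tested and in 99.9% of those that passed. The fifth was agpll1 (above), whose call was lost without the first ear of T147 (-0.57, adjusted p = 0.288), without the second ear of T191 (-0.76, adjusted p = 0.0921), and with a pseudocount of 0.1 (-1.22, adjusted p = 0.067). Without the first ear of T147 3 of the 8 were lower.

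The other three did not pass. GBSSIIa had neither a line difference nor a parental step that passed, as given above. GRMZM2G030571 fell in the parents by 3.41, and the ears of T147 had 18.0 and 18.4 FPKM and those of T191 had 6.35 and 14.1 (difference -0.87, SE 0.67, adjusted p = 0.493). The mean parental step of GRMZM2G125923, -1.33, was that of T209 (-3.13, adjusted p = 2.92e-06), while T210 had 0.46 (adjusted p = 0.532) and T147 rose from 30 to 40 DAP by 2.37 (adjusted p = 4.86e-05). At 30 DAP it had 3.77 and 6.68 FPKM in T147 and 10.5 and 11.9 in T191 (difference 1.01, SE 0.37, adjusted p = 0.0811), so that both ears of T191 were above both of T147. Groups were apart, in either direction, in 48.1% of all rows tested.

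Outside the lists, the 3 named genes with the largest differences upward among those that followed a parental rise were near 0 in T147. GRMZM2G090245 had 0.767 and 1.11 FPKM in T147 and 62.2 and 58.3 in T191 (difference 4.99, SE 0.61, adjusted p = 4.65e-06). Its highest mean was 1580 FPKM, in T147 at 40 DAP. GRMZM2G035045 had 0.123 and 0.266 FPKM in T147 and 20.9 and 21.8 in T191 (difference 4.23, adjusted p = 3.89e-05), and GRMZM2G314434 had 0.146 and 0 in T147 and 14.8 and 13.2 in T191 (difference 3.80, adjusted p = 0.00237). GRMZM2G035045 and GRMZM2G314434 were also higher in T191 over the other 4 DAP (1.04 and 3.12, adjusted p = 0.019 and 4.52e-06). GRMZM2G090245 did not pass there (-0.21, adjusted p = 0.708).

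The genes that were lowest in T191 against a mean parental rise included 2 genes of small heat shock proteins. For GRMZM2G034157 (hsp18c) T147 had 169 and 131 FPKM and T191 had 16.2 and 3.87 (difference -4.03, SE 0.84, adjusted p = 0.00183), and for GRMZM2G083810 (hsp18f) T147 had 193 and 154 and T191 had 39.6 and 34.4 (difference -2.19, adjusted p = 0.0432). The call of hsp18f was lost without any one of the 4 libraries (adjusted p of 0.106 to 0.236), without the filter (0.0712), with rescaled libraries (0.0613), and with only the 20 libraries of T147 and T191 (0.115). In all 4 lines hsp18c was lower at 30 than at 20 DAP. Its means at 20 and 30 DAP were 1104 and 150 FPKM in T147 and 1854 and 10.0 in T191. They were 1929 and 14.7 in T209 and 2023 and 54.2 in T210. From 30 to 40 DAP T147 changed by 0.07 in hsp18c and by 0.28 in hsp18f on the log2 scale, and neither passed. The parental rise of hsp18c from 30 to 40 DAP was that of T209 (GRMZM2G034157, 5.54, adjusted p = 6.18e-05), and T210 had 0.13 (adjusted p = 1). In GRMZM2G083810 T209 had 3.79 and T210 had 1.33 (adjusted p = 0.000593 and 0.271). The third gene, GRMZM2G138176, had 84.5 and 89.3 FPKM in T147 and 27.2 and 16.9 in T191 (difference -1.97, adjusted p = 4.52e-05), and its rise too passed in T209 (1.22, adjusted p = 0.00445) and not in T210 (0.34, adjusted p = 0.566).

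Higher in T191 against a mean parental fall were GRMZM2G031317, GRMZM2G078667, and GRMZM2G080466. GRMZM2G031317 had 4.54 and 4.08 FPKM in T147 and 99.7 and 133 in T191 (difference 4.45, SE 0.65, adjusted p = 4.2e-05), and it was higher in T191 at the other DAP too (2.27, adjusted p = 1.5e-05). GRMZM2G078667 had 9.12 and 15.2 FPKM in T147 and 283 and 146 in T191 (difference 3.99, adjusted p = 0.0078, which was 0.0921 without the first ear of T147 and 0.0691 without the first of T191). GRMZM2G080466 had 9.38 and 14.1 in T147 and 217 and 94.4 in T191 (difference 3.52, adjusted p = 0.000587). GRMZM2G080466 too was higher in T191 over the other 4 DAP (1.65, adjusted p = 0.000726), while GRMZM2G078667 did not pass there (0.13, adjusted p = 0.898). The fall of GRMZM2G078667 was that of T209 (-4.99, adjusted p = 0.00101), while T210 had 1.06 (adjusted p = 0.618) and T147 rose from 30 to 40 DAP by 4.25 (adjusted p = 0.00339), to 153 and 386 FPKM. For GRMZM2G031317 T210 fell (-3.24, adjusted p = 0.00126) and T209 had -0.94 (adjusted p = 0.374), and for GRMZM2G080466 neither parent passed alone. In these 3 genes the libraries of T191 were at least 94.4 FPKM and those of T147 at most 15.2.

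Among the named genes, those with no parental step that passed had the largest differences upward, up to 7.43 on the log2 scale. Downward they reached -6.57, against -6.90 in the zein z1C1_8, which followed the step. GRMZM2G141252 had 78.1 and 114 FPKM in T147 and was listed at 0 in both ears of T191 (adjusted p = 0.00398), and GRMZM2G435244 had 54.7 and 55.9 and was also listed at 0 in T191 (adjusted p = 0.003). GRMZM2G159353 had 61.6 and 76.1 FPKM in T147 and 0.0246 and 0.0510 in T191 (difference -6.07, adjusted p = 7.26e-05). In the other direction GRMZM2G144024 was listed at 0 in both ears of T147 and had 267 and 110 FPKM in T191 (adjusted p = 0.00026). GRMZM2G134107 had 0.165 and 0.101 FPKM in T147 and 128 and 107 in T191 (difference 6.70, adjusted p = 0.000243), and GRMZM2G164486 had 0 and 0.156 in T147 and 123 and 97.7 in T191 (difference 6.69, adjusted p = 0.00584, and 0.0541 without the first ear of T147). Of these 6, GRMZM2G141252, GRMZM2G159353, GRMZM2G435244, GRMZM2G144024, and GRMZM2G134107 also differed in the same direction over the other 4 DAP (adjusted p of 0.0145 or less), and GRMZM2G164486 did not (1.14, adjusted p = 0.369).

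Whether a difference was particular to 30 DAP was tested against the mean line difference at the other 4 DAP, in which 2074 rows (4.78%) passed, and 770 and 1240 without the first or the second ear of T147. The difference at 30 DAP, by which the rows below were chosen, is part of this test. Their shares therefore cannot be set against the 4.78% of all rows. Among rows that were lower in T191 and followed the parental step, 52.4% passed this test, and 24.5% were also lower in T191 over the other 4 DAP. Among rows with no parental step that passed the shares were 25.2% and 50.2% for those lower and 23.9% and 51.5% for those higher. Among the 368 rows that were higher and followed the step they were 23.6% and 37.2%. The 9 starch genes that were lower all passed, and 8 of the 12 zeins did. Over the other 4 DAP sh2 and bt2 differed by only -0.03 and -0.01, and 0 starch genes and 0 zeins passed there in limma (1 of each at an unadjusted p under 0.05). At 40 and 50 DAP sh2 had only 0.858 to 2.80 FPKM in either line, so that little difference could show at those times. Of the rows against the step, 24.2% of the 33 lower and 45.4% of the 174 higher rows were particular to 30 DAP.

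The changes within each line were set side by side, since they share libraries with the difference at 30 DAP. From 20 to 30 DAP 3619 rows fell in T191 (8.34%; 2384 without its second ear at 30 DAP) and 1254 in T147 (2.89%), and from 30 to 40 DAP 2995 rows fell in T191 (6.9%) and 4080 in T147 (9.4%). Of the 16 starch genes, 10 fell from 20 to 30 DAP in T191 and 1 in T147, and 8 and 12 fell from 30 to 40 DAP. Of the 12 zeins, 11 fell from 20 to 30 DAP in T191 and 0 in T147 (0 also at an unadjusted p under 0.05 in limma), and 3 and 12 fell from 30 to 40 DAP. For sh2 the steps from 20 to 30 and from 30 to 40 DAP were -4.09 and -2.59 in T191 and -0.01 and -6.14 in T147. Its means were 246, 20.1, and 1.40 FPKM at 20, 30, and 40 DAP in T191 and 230, 238, and 2.22 in T147. In the parents the means at 30 DAP were 39.9 FPKM in T209 and 183 in T210. For z1C2 the steps were -5.66 and -3.35 in T191 and -0.65 and -9.68 in T147, of which -3.35 and -0.65 did not pass. Its means were 12644 FPKM in T147 and 4281 in T191 at 20 DAP, and 12.5 and 6.11 at 40 DAP. The profiles over development show sh2 alike in both lines at 20 and 40 DAP and apart at 30 DAP, and z1C2 apart at 30 DAP by the most.

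**Figure D5:**
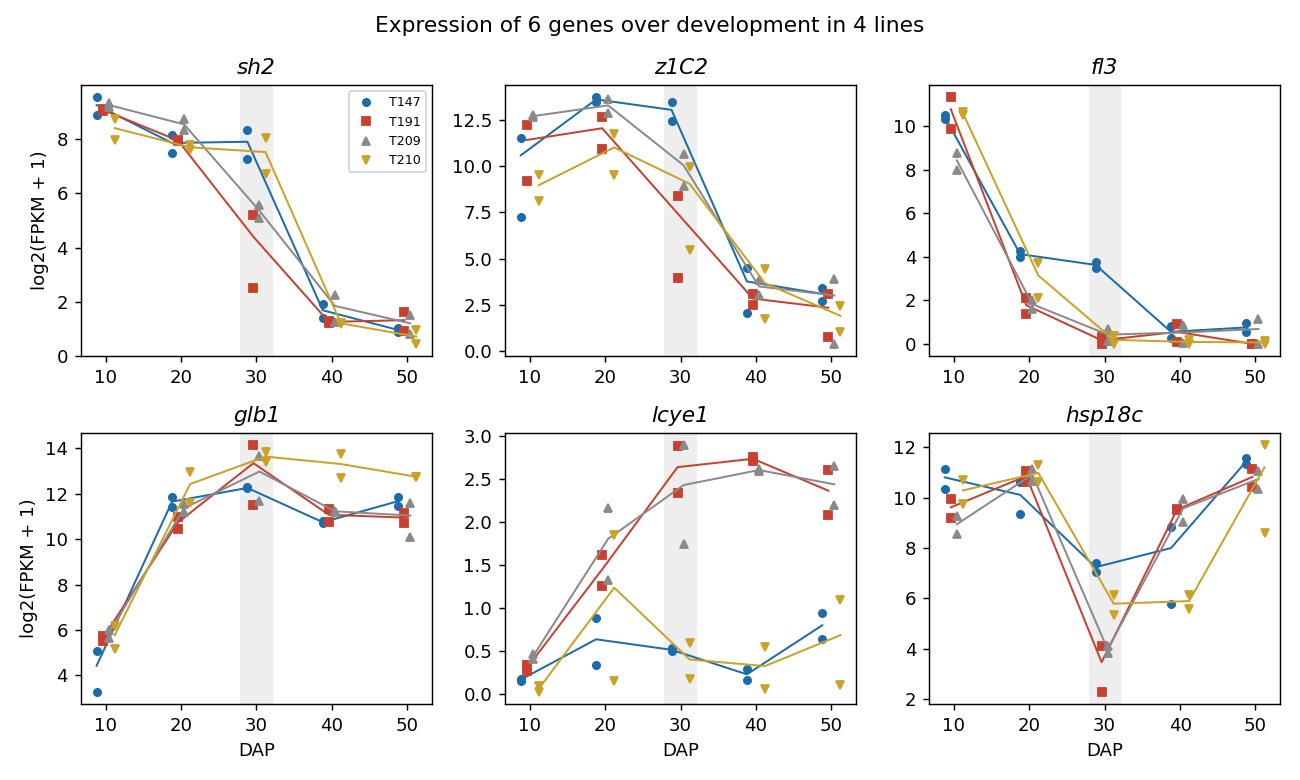
Expression as log2(FPKM + 1) of 6 genes over 5 DAP in 4 lines, with a point for each ear and lines through the mean of both, and 30 DAP shaded. T191 is below T147 at 30 DAP in sh2, z1C2, fl3, and hsp18c, the ears of T191 lie on both sides of T147 in glb1, and lcye1 is high from 30 DAP on in T191 and T209 only.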

How the data were processed

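RNA of maize kernels was sequenced in 40 libraries, 2 ears for each of 4 lines at 5 DAP. The authors deposited one table of FPKM with a row per gene or assembled locus. The submitters' processing notes name Bowtie 0.12.2, Cuffdiff, and the build B73 RefGen_v3. The methods do not state the role of each. Depth is known only relative to other libraries, from the ratios of values under 1 FPKM.

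A row was tested when 2 or more libraries reached 1 FPKM. Tests used limma 3.58.1 (R 4.3.3) on log2(FPKM + 1), a scale that understates the change of low genes. All 20 combinations of line and time had their own mean in one model, with a trend on the mean, and 20 residual degrees of freedom gave the spread shared by all groups. Tests were two-sided, with Benjamini-Hochberg adjustment over 43394 rows and a threshold of 0.05. p-values measure the spread between ears. The script was tested on simulated data.

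Named were the 8 genes of the study and up to 4 genes per list with the largest difference among those that passed. Added were, from all named rows that passed with groups that did not overlap, the 3 largest per direction in each class of parental step. Those that were lower and followed the step were zeins. Of these, z1A1_7 and z1C1_5 repeat the values of zeins named from the list, and so count again among the 53 named genes. Genes given beyond these, such as those that did not pass, were chosen after their values were seen. Members and lists were chosen with earlier results of these data known. Lists were matched by symbol or synonym in the RefSeq gene table of Zm-B73-REFERENCE-NAM-5.0, used for names only. Descriptions of proteins were not used. Alternatives were a pseudocount of 0.1, no filter, libraries rescaled over 11635 genes, no trend, a depth term, the ear number as a block, other sets of libraries, and single libraries left out. Steps of each parent alone were added after the data were seen.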

Additional observations from a re-analysis of the deposited data

Results flagged for a closer look

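The line difference at 30 DAP was set against its mean at 10, 20, 40, and 50 DAP in the model of all libraries, and the genes below passed an adjusted p of 0.05 for the difference between them. Most were named because of their difference at 30 DAP, which is part of this test. Of the starch genes named, wx1 (GRMZM2G024993) was lower in T191 at 30 DAP by a further -4.23 on the log2 scale, sh2 by -3.93, bt1 by -3.87, and bt2 by -3.40. Among genes of sucrose cleavage mn1 had -3.53 and sh1 had -3.06. The zeins had the largest values, with -6.29 in z1C2, -6.11 in z1C1_1 and z1C1_5, -6.03 in z1A1_3/z1A1_4 and z1A1_7, and -5.83 in z1C1_8. The factors o2, pbf1, and fl3 had -3.62, -2.83, and -2.72.

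In glycolysis and related steps the values were -4.46 in ppdk2, -2.87 in gpc3, -2.52 in gpc4, and -1.48 in adh2. Histone genes h3c4 and h3c2 had -2.43 and -1.81, rbcs1 had -1.32, and r1 had -1.34. Of the genes named by the study, GRMZM2G043417 had -3.61, GRMZM2G038677 -2.54, GRMZM5G843748 -1.93, GRMZM2G136106 -1.86, and agpll1 -1.14. GRMZM2G125923 went the other way, with 1.68, with a mean of -0.67 over the other 4 DAP. At 40 DAP T147 had 27.2 and 33.9 FPKM and T191 had 1.65 and 1.58, while at 20 DAP T147 had 1.498 and 2.39 and T191 had 4.68 and 13.5.

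Outside the lists, GRMZM2G090245 (5.19), GRMZM2G078667 (3.86), and GRMZM2G035045 (3.19) were higher in T191 at 30 DAP beyond the other DAP. GRMZM2G159353 had -4.43, GRMZM2G034157 -4.34, GRMZM2G083810 -2.98, and GRMZM2G138176 -1.99.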

How the results depend on the processing

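With single libraries left out, the rows that differed at 30 DAP numbered 2441 to 4671, those of the parental step 6432 to 9971, those particular to 30 DAP 770 to 2179, those that fell in T191 from 20 to 30 DAP 2384 to 3544, and those that followed the parental step 895 to 1570. The difference in place, T191 minus T147, was 0.40 to 0.52 without single parental libraries, and 0.43 without the second ear of T209 at 30 DAP. Starch genes lower in T191 numbered 5 to 9, and zeins 5 to 12. Where 1 ear was left, it was assumed to vary as other groups do. A fit to only the 4 libraries gave 0 rows in limma (9356 at an unadjusted p under 0.05), and so 0 starch genes and 0 zeins. With a step from 20 to 40 DAP 3150 rows followed the parents, and with that of T209 alone 1048. With a pseudocount of 0.1, no filter, rescaling, no trend, a depth term, or only 20 libraries the rows that differed numbered 6199, 5770, 5863, 5498, 5574, and 5496.

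Ears are not paired by the labels. With the ear number as a replicate block 5482 rows differed at 30 DAP, and deviations of same-numbered ears had a correlation of -0.215 across rows. With the ears of T191 crossed in the block, chosen after seeing the data, 5495 rows differed.

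Of 689 values of the 53 named genes under 13 alternatives, 598 kept direction and side of the threshold and 89 no longer passed. GRMZM2G125923 passed under the block (adjusted p = 0.0486). GBSSIIa (GRMZM2G008263) turned from 0.20 to -0.12 without the second ear of T191 and had 0.52 without the first. Apart from the fit of 4 libraries, 39 genes kept their side throughout. The places without zein and starch genes and the crossed block were chosen after seeing the data. Depth in reads is unknown, which limits values near 0 FPKM.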
